A study of Mus musculus with 12 samples.

Results

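The genes described here are 10 genes of plasma lipoproteins: 9 that encode apolipoproteins (Apoa1, Apoa2, Apoa4, Apoa5, Apob, Apoc1, Apoc2, Apoc3 and Apoe) and Mttp, which encodes the large subunit of the microsomal triglyceride transfer protein. They were taken by gene symbol from a table of 24411 genes measured in mouse liver, and all 10 were among the 13922 genes that passed the filter on low counts and were tested. The study asked what becomes of a liver that lacks autophagy in its hepatocytes when p62, the autophagy receptor encoded by Sqstm1, can no longer hold KEAP1, the inhibitor of the transcription factor NRF2, in the p62 bodies that build up there. Poly(A) RNA from whole liver of mice of 3 months of age was sequenced, and 3 of the study's genotypes, with 3 mice in each, are compared here. Control mice (cont.) were Atg7flox/flox without Cre. Atg7-KO mice were Atg7flox/flox;Alb-Cre, in which the Albumin promoter drives Cre and so deletes Atg7, an enzyme needed to form autophagosomes, in hepatocytes. Deletion in other liver cell types was not measured here. Atg7-KO;p62T352A mice were Atg7flox/flox;Alb-Cre;p62T352A/T352A, with the same deletion and, in every cell of the body, both copies of the p62 gene carrying an exchange that prevents KEAP1 binding. All 9 mice therefore carried floxed Atg7. The 3 mice with the p62T352A exchange alone have labels, but no column of the table used here names them, and they were not analysed here, so the effect of the exchange in a liver with autophagy was not measured.

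Lipoproteins carry cholesterol and triglyceride through blood. In the liver, MTTP loads lipid onto APOB as it is made in the endoplasmic reticulum, which yields very low density lipoprotein, whereas APOA1 and APOA2 form the protein shell of high density lipoprotein. APOC2 activates lipoprotein lipase and APOA5 promotes its action, APOC3 and APOC1 restrain the clearance of triglyceride-rich particles, and APOE is the ligand by which their remnants are taken up. APOA4 is made mainly by the intestine and rises in a mouse liver that stores lipid.

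In Atg7-KO livers, most of these genes were far below cont. and 1 was far above. Apoa1, Apoa2, Apoa5, Apoc1, Apoc3 and Apoe were lower, by 2.12-fold for Apoe to 6.55-fold for Apoa2, and Apoa4 was 10.1-fold higher. In Atg7-KO;p62T352A livers the 6 lower genes were back within or above the range of cont. mice, whereas Apoa4 was still 8.56-fold above cont. Apob and Mttp, the pair that builds the very low density lipoprotein particle, were called in none of the 3 comparisons, nor was Apoc2. Mttp was, however, called lower in Atg7-KO;p62T352A against Atg7-KO in 9 of 24 other settings, among them a replicate block by mouse number. The fold changes above rest on libraries scaled by TMM. With total counts alone, 5 of the 6 falls were still called. When libraries were scaled to hepatocyte markers, 5 of the 6 were no longer called. Calls of lower genes then dropped from 3074 to 414 over all genes tested. Of the 6 rises in Atg7-KO;p62T352A against Atg7-KO, those of Apoa1, Apoa2, Apoc1 and Apoc3 stayed called on the marker scale. On that scale Mttp and Apob were called higher in Atg7-KO against cont., as were 8138 of all 13922 genes tested. Apob (0.73) lay below the median of all genes (1.07). Mttp and Apob were called lower in Atg7-KO;p62T352A against Atg7-KO, as were 7310 genes, against 531 called higher.

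Libraries held from 9671073 to 23285134 counts in cont. mice, from 16157275 to 18480541 in Atg7-KO mice and from 16133626 to 17357183 in Atg7-KO;p62T352A mice. The cont. mouse 1 stood apart from the other 2 cont. mice. It had the largest library. The 20 genes with the most counts over all mice together took 27.7% of its counts, against 21.5% and 19.7% in the others. Calls on the 10 genes that change without cont. mouse 1 are given both ways. In every genotype the mouse numbered 1 had few counts of the female-expressed Xist (7, 27.74 and 8.67), whereas the other 6 mice had 8578 to 18335. Levels are given as CPM, counts per 1000000 counts of a library after TMM scaling. Cont. livers had 48.7 ± 5.94 CPM of Atg7 (mean ± SD, n = 3), Atg7-KO livers 10.6 ± 1.27 and Atg7-KO;p62T352A livers 28.9 ± 1.28. Against cont., its log2 fold change in Atg7-KO livers was -2.20 and in Atg7-KO;p62T352A livers -0.75 (FDR = 0.0206). The targeted gene thus had more counts in the second deleted genotype than in the first, with a log2 fold change of 1.45 between them. By immunoblot, the paper found almost no ATG7 protein in Atg7-KO livers with either form of p62. What the difference in Atg7 RNA reflects was not tested. Sqstm1 was at 387 ± 103, 914 ± 44.2 and 545 ± 71.1 CPM in the same order. In bulk liver RNA, fewer hepatocytes and less RNA of a gene per hepatocyte cannot be told apart.

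A gene was called when its Benjamini-Hochberg FDR over all genes tested, from edgeR's quasi-likelihood test, was under 0.05 and its fold change over 1.5. In Atg7-KO against cont., 1 of the 10 genes was called higher, where 21.6% of all genes tested were, and 6 were called lower, where 22.1% of all genes were. Their median log2 fold change was -1.22, against -0.03 for all genes tested. In Atg7-KO;p62T352A against Atg7-KO, 6 of the 10 were called higher (24.7% of all genes) and 0 lower (26.2% of all genes), with a median of 1.58 against 0.0021. In Atg7-KO;p62T352A against cont., 1 was called higher (6.25% of all genes) and 0 lower (5.34% of all genes), with a median of 0.54 against 0.0044. The Atg7-KO mice enter the first and second of these comparisons, the cont. mice the first and the last and the Atg7-KO;p62T352A mice the second and the last, so a gene that is low in Atg7-KO mice is likely to move opposite ways in the first pair.

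**Figure D1:**
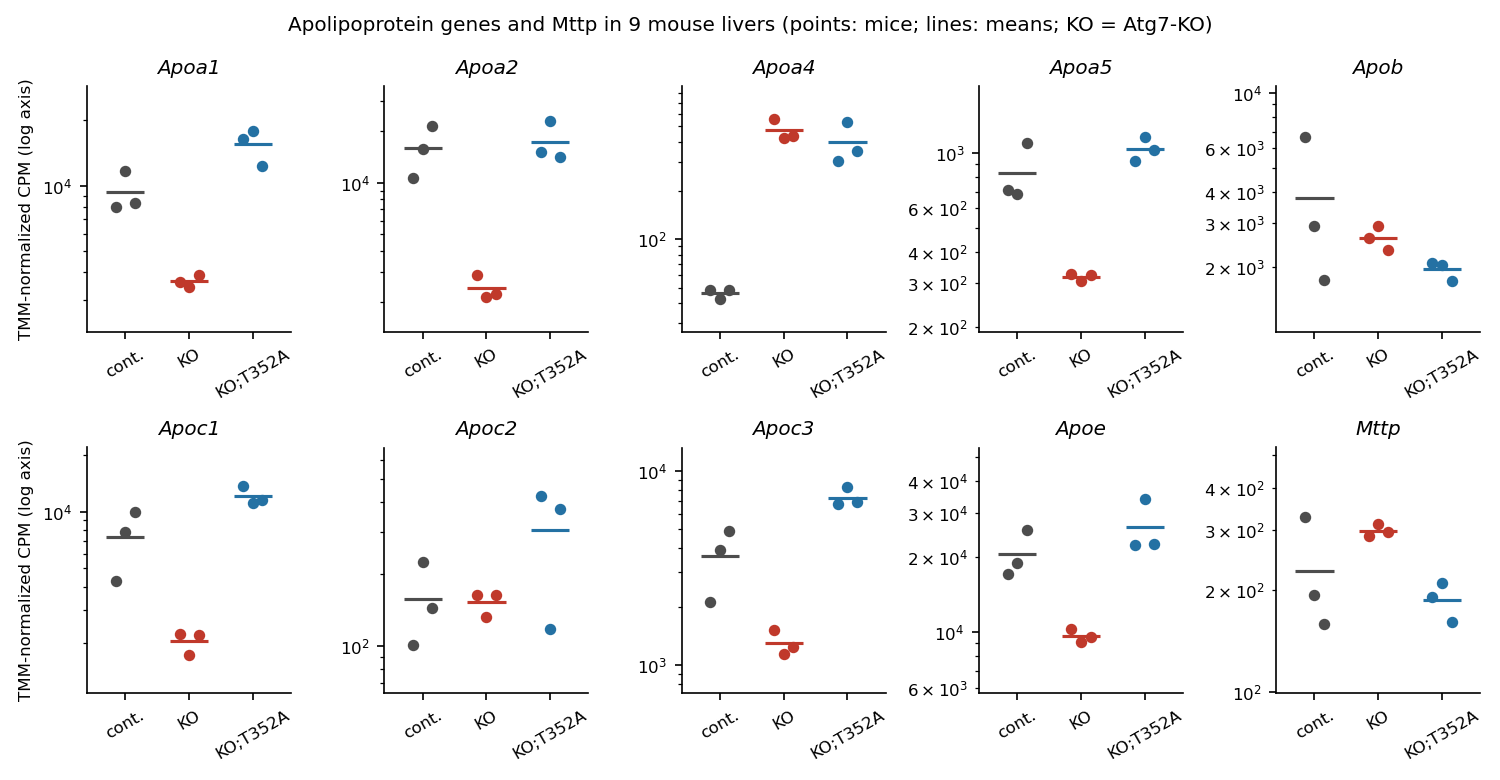
TMM-normalized CPM of each of the 10 genes (log axis, own range for each gene) in 3 cont., 3 Atg7-KO and 3 Atg7-KO;p62T352A mice, with points for mice and lines for means. The Atg7-KO mice lie below all other mice for Apoa1, Apoa2, Apoa5, Apoc1, Apoc3 and Apoe, and the cont. mice lie below all other mice for Apoa4.

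**Figure D2:**
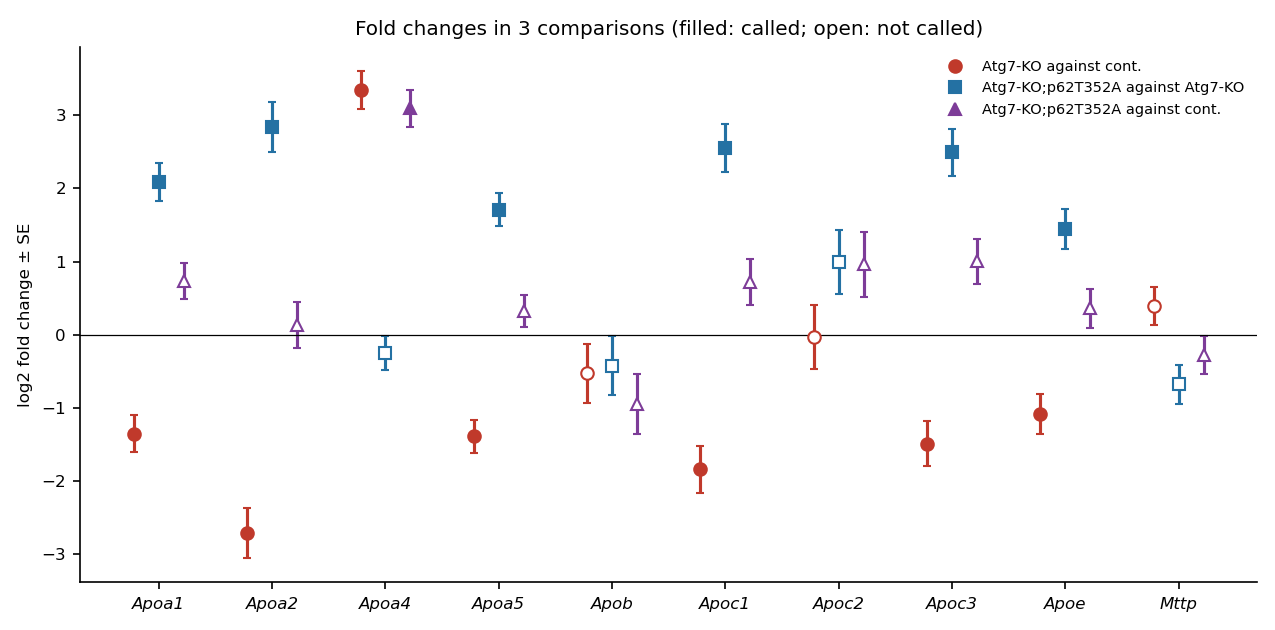
Log2 fold change (vertical axis, ± SE) of each gene in the 3 comparisons, with filled symbols for called genes. The 6 genes that fell in Atg7-KO against cont. are the 6 that rose in Atg7-KO;p62T352A against Atg7-KO, 2 comparisons that share the Atg7-KO mice, and only Apoa4 is filled in Atg7-KO;p62T352A against cont.

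The 10 genes lie at 5 places in the genome, and their promoters are shown because neighbouring genes here moved in opposite directions. Positions are those of GRCm38 (mm10). Apoa1 (chr9:46228580-46230466, plus strand), Apoc3 (chr9:46232933-46235636, minus strand), Apoa4 (chr9:46240696-46243459, plus strand) and Apoa5 (chr9:46268633-46271919, plus strand) share 1 cluster. Apoc2 (chr7:19671579-19677941), Apoc1 (chr7:19689481-19692660) and Apoe (chr7:19696109-19699188) share another, all on the minus strand. Apoa2 (chr1:171225054-171226379, plus strand), Apob (chr12:7977648-8016835, plus strand) and Mttp (chr3:138089854-138144968, minus strand) stand alone. Within the first cluster, Apoa1, Apoc3 and Apoa5 fell in Atg7-KO livers while Apoa4, between Apoc3 and Apoa5, rose.

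The sequences below come from RefSeq promoter windows (GRCm38.p6, 250 bases before to 50 bases after a transcript's start), cut to the bases upstream of the annotated gene and written along the gene's own strand. The first 3 are the plus-strand genes of the cluster on chromosome 9, where Apoa4 rose and Apoa1 and Apoa5 fell. Apoa2 had the largest fall, Apoe had the most counts of the 10, and Apob was not called. Capitals mark TATAAA, the letters of a TATA box, CAAAG or its reverse complement CTTTG, a core found in sites of the hepatic nuclear receptor HNF4A, and AGGTCA or TGACCT, a core that nuclear receptors bind.
Apoa1, chr9:46228380-46228579, plus strand: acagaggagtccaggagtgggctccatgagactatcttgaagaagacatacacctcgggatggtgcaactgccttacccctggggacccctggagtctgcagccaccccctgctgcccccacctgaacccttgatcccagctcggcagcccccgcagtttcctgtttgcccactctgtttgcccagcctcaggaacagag
Apoa4, chr9:46240594-46240695, plus strand: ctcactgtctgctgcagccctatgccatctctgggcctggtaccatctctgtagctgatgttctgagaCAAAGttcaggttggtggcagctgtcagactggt
Apoa5, chr9:46268383-46268632, plus strand: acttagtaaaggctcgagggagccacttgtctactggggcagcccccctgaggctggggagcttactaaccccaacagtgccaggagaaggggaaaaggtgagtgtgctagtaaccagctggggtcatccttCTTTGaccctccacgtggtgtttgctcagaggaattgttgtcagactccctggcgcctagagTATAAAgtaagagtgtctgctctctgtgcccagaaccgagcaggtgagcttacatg
Apoa2, chr1:171224804-171225053, plus strand: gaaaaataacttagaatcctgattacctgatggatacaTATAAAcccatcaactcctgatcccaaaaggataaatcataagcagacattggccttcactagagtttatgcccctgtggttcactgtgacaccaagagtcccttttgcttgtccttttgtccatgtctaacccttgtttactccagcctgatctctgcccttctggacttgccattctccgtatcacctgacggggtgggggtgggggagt
Apoe, chr7:19699189-19699438, minus strand: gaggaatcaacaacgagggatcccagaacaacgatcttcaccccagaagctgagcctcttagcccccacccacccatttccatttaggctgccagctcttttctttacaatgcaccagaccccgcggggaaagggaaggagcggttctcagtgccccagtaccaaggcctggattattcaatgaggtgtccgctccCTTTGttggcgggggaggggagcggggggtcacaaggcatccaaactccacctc
Apob, chr12:7977427-7977647, plus strand: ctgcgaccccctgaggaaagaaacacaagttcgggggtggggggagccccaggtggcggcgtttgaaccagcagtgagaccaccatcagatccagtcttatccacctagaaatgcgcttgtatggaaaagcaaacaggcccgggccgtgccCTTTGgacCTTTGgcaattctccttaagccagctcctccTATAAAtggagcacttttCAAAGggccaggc

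Windows of 8 of the 10 genes were in the RefSeq table, and those of Apoc1 and Apoc3 were not. Both strands of the whole windows were searched. Some genes had more than 1 window, so a count per gene is not like a share per window. TATAAA was found for 4 of the 8 genes (Apoa2, Apoa5, Apob and Apoe), against 13.62% of 32851 mouse promoter windows. For Apoe it lay only in a window whose transcript start is inside the annotated gene. CAAAG was found for 6 (Apoa4, Apoa5, Apob, Apoc2, Apoe and Mttp), against 53.93%, and AGGTCA for 2 (Apoa2 and Apoc2), against 16.26%. For Apoa2 the AGGTCA match lay in a window not shown above, whose transcript start (chr1:171221564) is upstream of the annotated gene. TGACGTNA, the letters of a CREB/ATF-type site, was found for Mttp and in 2.931% of all windows. The Mttp window that held its CAAAG and TGACGTNA matches has its transcript start (chr3:138143418) inside the annotated gene. TGACNNNGC, the core of the antioxidant response element that NRF2 binds, was found for 0 of the 8 genes and in 12.39% of all windows. A match or its absence describes these letters in these windows and nothing more. The genes that fell and the gene that rose did not divide by any of these letters: Apoa1 held none of the 5 motifs, while Apoa4 and Apoa5 both held CAAAG.

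Apoa1 and Apoa2 encode the structural proteins of high density lipoprotein. Apoa1 was at 7999, 11600 and 8362 CPM in cont. mice, at 3632, 3418 and 3903 in Atg7-KO mice and at 16266, 17865 and 12269 in Atg7-KO;p62T352A mice. The 3 genotypes did not overlap: every Atg7-KO mouse was below every cont. mouse, and every Atg7-KO;p62T352A mouse above. Its log2 fold change was -1.35 (SE 0.25, FDR = 0.00222) in Atg7-KO against cont. and 2.08 (SE 0.26, FDR = 2.34e-04) in Atg7-KO;p62T352A against Atg7-KO. Against cont., Atg7-KO;p62T352A was 0.73 higher on the log2 scale (SE 0.25), which was not called (FDR = 0.0860).

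Apoa2 fell furthest. It was at 10609, 15682 and 21371 CPM in cont. mice, at 2887, 2152 and 2243 in Atg7-KO mice and at 15113, 23022 and 14131 in Atg7-KO;p62T352A mice. The Atg7-KO mice were all below the others, and the other 2 genotypes overlapped. The log2 fold changes were -2.71 (SE 0.34, FDR = 2.69e-04) in Atg7-KO against cont. and 2.84 (SE 0.34, FDR = 2.06e-04) in Atg7-KO;p62T352A against Atg7-KO, and 0.13 (SE 0.32, FDR = 0.827) between Atg7-KO;p62T352A and cont. Apoa2 was called lower in Atg7-KO against cont., and higher in Atg7-KO;p62T352A against Atg7-KO, under all other settings tried.

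Apoa4, the apolipoprotein that the intestine makes in quantity, had the lowest count of the 10 genes per transcript length in cont. livers. It was at 48.5, 42.6 and 48.5 CPM in cont. mice, at 556, 426 and 433 in Atg7-KO mice and at 307, 534 and 353 in Atg7-KO;p62T352A mice. Both deleted genotypes were above every cont. mouse, and they overlapped each other. The log2 fold change was 3.34 (SE 0.26, FDR = 2.55e-05) in Atg7-KO and 3.10 (SE 0.25, FDR = 0.00146) in Atg7-KO;p62T352A livers, each against cont. Between the deleted genotypes it was -0.25 (SE 0.23, FDR = 0.395). Apoa4 overlaps annotated genes on the other strand (Gm10680 and Gm47528), and the strand setting of the counting is not given in the sources used here, so reads from either strand cannot be told apart. The same holds for Apoa5 (Gm47544) and, with Gm43691 and Trmt10a, for Mttp. Of the intestinal markers searched for, Sis was listed at 0 in every mouse. Fabp2, the most counted of them, was at 49.5 ± 21.2 CPM in cont. livers, at 30.8 ± 3.40 in Atg7-KO livers and at 78.1 ± 18.9 in Atg7-KO;p62T352A livers. Vil1 was at 0.218 ± 0.118, 2.10 ± 0.406 and 0.187 ± 0.110 CPM in the same order and was called higher in Atg7-KO against cont. (3.24, FDR = 7.29e-04). The part of intestinal RNA in the values of Apoa4 was not tested.

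Apoa5, Apoc2, Apoc3 and Apoc1 encode the proteins that set how fast triglyceride is cleared from particles. Apoa5 was at 708, 688 and 1094 CPM in cont. mice, at 325, 305 and 324 in Atg7-KO mice and at 927, 1164 and 1031 in Atg7-KO;p62T352A mice. It was lowest in all 3 Atg7-KO mice, with a log2 fold change of -1.38 (SE 0.22, FDR = 0.00112) against cont. and of 1.71 (SE 0.23, FDR = 3.25e-04) in Atg7-KO;p62T352A against Atg7-KO. Atg7-KO;p62T352A and cont. mice overlapped and differed by 0.33 (SE 0.22, FDR = 0.369).

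Apoc3 was at 2119, 3919 and 4881 CPM in cont. mice, at 1510, 1145 and 1236 in Atg7-KO mice and at 6719, 8253 and 6896 in Atg7-KO;p62T352A mice, with no overlap between any pair of genotypes. Its log2 fold change was -1.49 (SE 0.31, FDR = 0.00391) in Atg7-KO against cont. and 2.49 (SE 0.32, FDR = 2.78e-04) in Atg7-KO;p62T352A against Atg7-KO. It was 1.00 (SE 0.31, FDR = 0.0625) in Atg7-KO;p62T352A against cont., not called. Without cont. mouse 1 this became 0.73 (FDR = 0.0393), without cont. mouse 3 it became 1.27 (FDR = 0.0343), and both were called.

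Apoc1 was at 4265, 7797 and 10017 CPM in cont. mice, at 2230, 1735 and 2226 in Atg7-KO mice and at 13725, 11103 and 11612 in Atg7-KO;p62T352A mice. The order of the genotypes was that of Apoc3, again with no overlap. The log2 fold changes were -1.83 (SE 0.32, FDR = 0.00160), 2.56 (SE 0.33, FDR = 2.79e-04) and 0.72 (SE 0.31, FDR = 0.163), the last not called. In log2 CPM centred on its own mean over the 9 mice, Apoc1 differed from Apoc3 by a root mean square of 0.22, and Apoa5 from Apoe by 0.18. These were the closest pairs among the 10 genes, and each pair holds genes from different chromosomes.

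Apoc2 could not be read on its own. It was at 101, 224 and 144 CPM in cont. mice, at 163, 132 and 164 in Atg7-KO mice and at 421, 118 and 374 in Atg7-KO;p62T352A mice, and it was called in none of the 3 comparisons (log2 fold changes of -0.034, 0.99 and 0.96, SE 0.44 each, FDR = 0.954, 0.0805 and 0.186). The table also holds a read-through transcript, Apoc4-apoc2 (Gm44805 in GENCODE), and 77.5% of the 75-base stretches of Apoc2 transcripts occur in it, while the other 9 genes shared 0% with any gene. The read-through entry received 3005, 513 and 818 expected counts in cont. mice and 5381, 4917 and 5932 in Atg7-KO mice. In Atg7-KO;p62T352A mice it received 120, 7241 and 0, so that the mouse with the least Apoc2 was the one with the most read-through. Summing both entries gave 273, 273 and 234 CPM in cont. mice, 423, 334 and 417 in Atg7-KO mice and 430, 625 and 374 in Atg7-KO;p62T352A mice. Both deleted genotypes were then above every cont. mouse. In a fit with the summed entry, which was added after the values were seen, its log2 fold change was 0.59 (SE 0.22, FDR = 0.0549) in Atg7-KO and 0.87 (SE 0.23, FDR = 0.0360) in Atg7-KO;p62T352A livers against cont., the second called. When Apoc4, which has far more counts, was summed in as well, every Atg7-KO mouse was below every cont. mouse, and the log2 fold change was -0.93 (FDR = 0.00348) in Atg7-KO against cont., 1.99 (FDR = 8.36e-05) in Atg7-KO;p62T352A against Atg7-KO and 1.05 (FDR = 0.0110) in Atg7-KO;p62T352A against cont., each called. The direction in Atg7-KO livers thus depended on which entries were summed. Without Atg7-KO;p62T352A mouse 2, Apoc2 alone was called higher in Atg7-KO;p62T352A against Atg7-KO, at 1.38 (FDR = 0.00801), and against cont., at 1.35 (FDR = 0.0402). Without cont. mouse 1 it was called in Atg7-KO;p62T352A against Atg7-KO, at 1.00 (FDR = 0.0472).

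**Figure D3:**
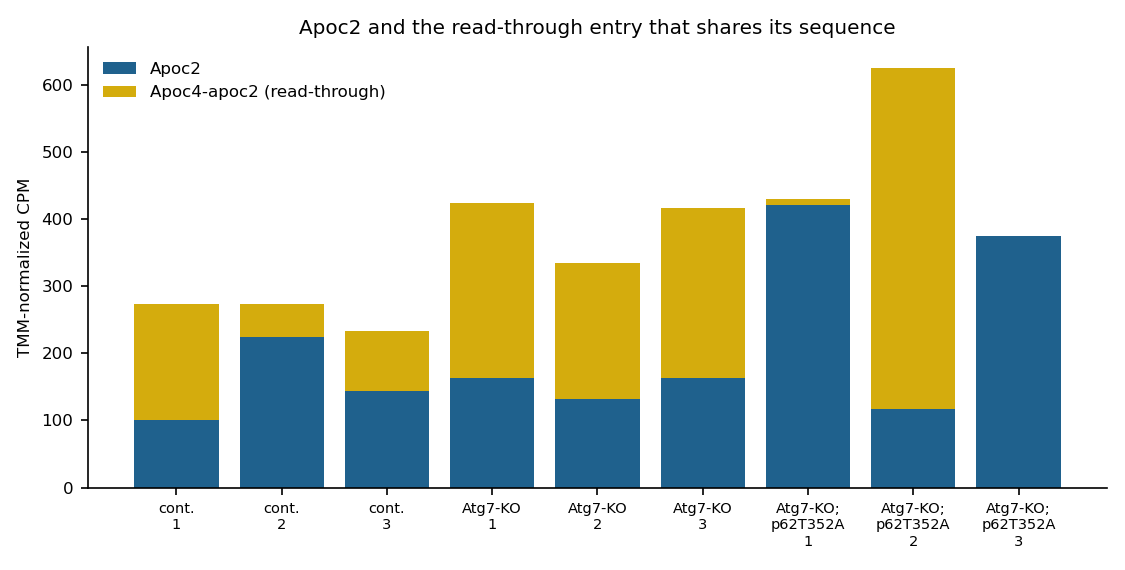
Stacked TMM-normalized CPM (vertical axis, from 0) of Apoc2 and of the read-through entry Apoc4-apoc2 in each of the 9 mice. The division between the entries varies between mice of 1 genotype, most in Atg7-KO;p62T352A, where Apoc2 holds 118 CPM of mouse 2 and 421 and 374 CPM of the others.

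Apoe, whose product carries remnants to hepatic receptors, ranked 3 among all genes of the table by counts. It was at 17016, 18937 and 25434 CPM in cont. mice, at 10285, 9103 and 9583 in Atg7-KO mice and at 22237, 34095 and 22514 in Atg7-KO;p62T352A mice. All Atg7-KO mice were below the rest, and the other genotypes overlapped. The log2 fold changes were -1.08 (SE 0.27, FDR = 0.00997), 1.44 (SE 0.28, FDR = 0.00205) and 0.36 (SE 0.27, FDR = 0.418). The first was not called by a test against a fold change of 1.5 (edgeR's glmTreat, FDR = 0.0550).

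Apob and Mttp make up the machinery of particle assembly. Apob was at 6666, 2919 and 1787 CPM in cont. mice, at 2616, 2922 and 2353 in Atg7-KO mice and at 2082, 2048 and 1763 in Atg7-KO;p62T352A mice. The cont. mice spanned a wider range than all other mice together. The log2 fold changes were -0.53 (SE 0.41, FDR = 0.313) in Atg7-KO and -0.95 (SE 0.41, FDR = 0.164) in Atg7-KO;p62T352A livers against cont., and -0.42 (SE 0.41, FDR = 0.401) between the deleted genotypes, whose mice did not overlap. Without cont. mouse 1, Apob was at 0.16 in Atg7-KO against cont. (FDR = 0.581), and without cont. mouse 3 it was called lower in Atg7-KO;p62T352A against cont., at -1.29 (FDR = 0.0389).

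Mttp was at 328, 194 and 159 CPM in cont. mice, at 287, 312 and 297 in Atg7-KO mice and at 191, 210 and 160 in Atg7-KO;p62T352A mice. Cont. mouse 1 was above the Atg7-KO mice, and the other 2 cont. mice were below them. The log2 fold changes were 0.40 (SE 0.26, FDR = 0.239), -0.68 (SE 0.26, FDR = 0.0516) and -0.28 (SE 0.26, FDR = 0.527). Without cont. mouse 1, Mttp was called higher in Atg7-KO against cont., at 0.76 (FDR = 0.00338), and lower in Atg7-KO;p62T352A against Atg7-KO, at -0.67 (FDR = 0.00281). In the second comparison it was called lower in 9 of 24 other settings and negative in all 24. These included upper-quartile normalization (-0.81, FDR = 0.0286), DESeq2 (-0.71, FDR = 0.0339), at least 10 counts in every mouse (-0.75, FDR = 0.0298) and cont. mouse 3 left out (-0.67, FDR = 0.0296). The others were a replicate block by mouse number, the mice numbered 1 left out, total counts alone and scaling to hepatocyte markers, besides cont. mouse 1 left out. Mttp did not move with the 6 genes that fell in Atg7-KO livers, whatever the scaling: its lowest value in Atg7-KO against cont. under all settings tried was 0.188, without cont. mouse 3.

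Together the 10 genes took 3.74%, 5.90% and 6.90% of all counts of the cont. mice (5.51% ± 1.62). They took 3.13%, 2.85% and 3.00% in Atg7-KO mice (3.00% ± 0.142) and 6.66%, 8.09% and 6.75% in Atg7-KO;p62T352A mice (7.17% ± 0.804). The share was thus lower in each Atg7-KO mouse than in any other mouse, and the Atg7-KO;p62T352A mice overlapped the cont. mice. Apoe alone took 1.28%, 1.80% and 2.39% of the counts in cont. mice and 1.32%, 1.20% and 1.26% in Atg7-KO mice, so that on this scale, which has no TMM factor, cont. mouse 1 lay among the Atg7-KO mice.

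**Figure D4:**
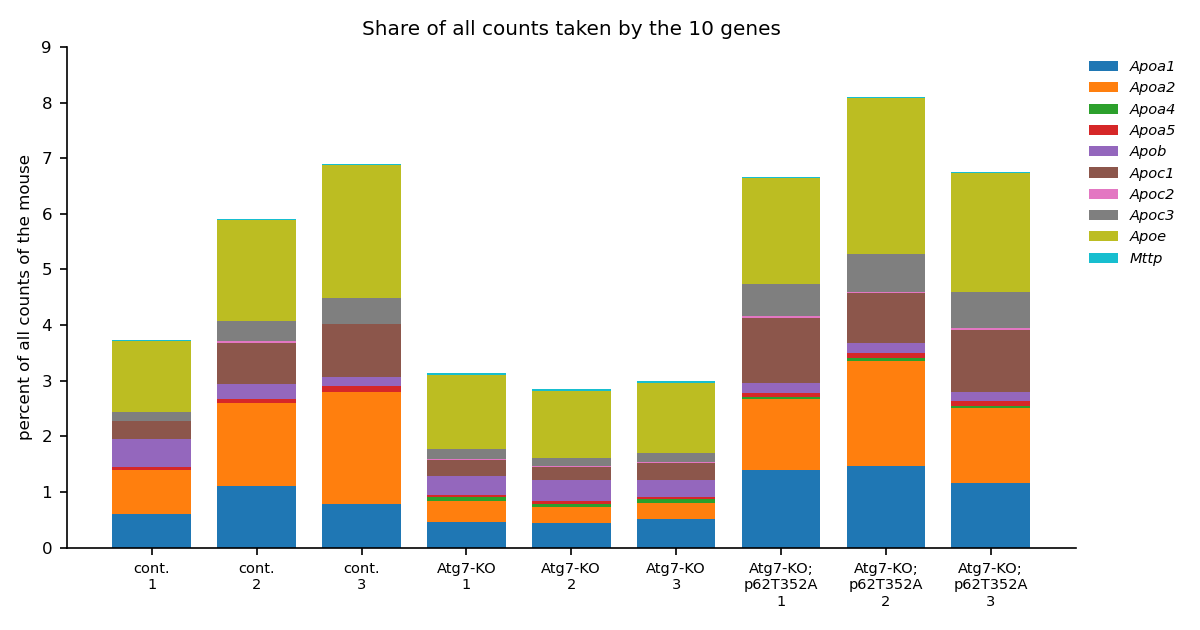
Percent of all counts of each mouse (vertical axis, from 0) taken by each of the 10 genes, stacked, for the 9 mice. The bars of the Atg7-KO mice end between 2.85% and 3.13%, below all others, and Apoe, Apoa2, Apoa1 and Apoc1 make up most of every bar.

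Levels of different genes were compared as counts divided by the length of the longest coding transcript and scaled to the same sum in every mouse, here called length-scaled values. In cont. livers Apoa2 was highest (46782 ± 20103), followed by Apoe (21878 ± 6802), Apoc1 (21260 ± 10216), Apoa1 (13586 ± 4460) and Apoc3 (7890 ± 3737), and each of these overlapped the next. Far below came Apoa5 (495 ± 174), Apob (380 ± 198) and Apoc2 (331 ± 168), whose ranges overlapped, and then Mttp (82.1 ± 19.7) and Apoa4 (37.9 ± 4.59), each separate from its neighbours. In Atg7-KO livers Apoe led (17157 ± 454) ahead of Apoa2 (11694 ± 1522), the reverse of cont., and Apoa4 stood sixth (649 ± 78.6), above Apoc2, Apob, Apoa5 and Mttp. Over all genes of the table the length-scaled value of Apoa4 had rank 2263 in cont. livers, rank 253 in Atg7-KO livers and rank 436 in Atg7-KO;p62T352A livers. Apoa2 was first again in Atg7-KO;p62T352A livers (47044 ± 9296), and Apoa4 (308 ± 74.8) lay between Apoa5 (586 ± 75.4) and Apob (199 ± 7.63), apart from both. With the merged exons of all transcripts as the length, Apoc1 passed Apoe in cont. livers (19578 against 18508). In Atg7-KO livers Apoe (15234) and Apoa2 (15206) then lay close together, and Apoa1 (9974) passed Apoc1 (9344).

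Part of these results depended on how the libraries were scaled. The 20 genes with the most counts over all mice together took 12.7% to 13.4% of the counts of Atg7-KO mice. They took 21.8% to 25.0% of those of Atg7-KO;p62T352A mice. TMM gave the Atg7-KO mice factors of 1.28 to 1.32, cont. mice 0.75 to 0.95 and Atg7-KO;p62T352A mice 0.82 to 0.95. With total counts alone, the median over all tested genes moved from -0.03 to 0.55 on the log2 scale for Atg7-KO against cont., and from 0.0021 to -0.57 for Atg7-KO;p62T352A against Atg7-KO. The calls over all genes moved with it: for Atg7-KO against cont. from 3006 higher and 3074 lower to 5926 and 1103, and for Atg7-KO;p62T352A against Atg7-KO from 3443 and 3652 to 1342 and 6138. With total counts alone, Apoa1, Apoa2, Apoa5, Apoc1 and Apoc3 were still called lower in Atg7-KO against cont., from -0.80 to -2.18, but Apoe was not (-0.53, FDR = 0.110). Mttp was called higher in that comparison, at 1.01 (FDR = 0.00208). The same 6 genes were called higher in Atg7-KO;p62T352A against Atg7-KO on that scale, while Apoa4 (-0.83), Apob (-1.00) and Mttp (-1.26) were called lower.

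The fall of the 6 genes was set beside that of other hepatocyte products. Of 8 hepatocyte markers, 6 were called lower and 0 higher in Atg7-KO against cont., with a median log2 fold change of -1.17, and 5 were called higher in Atg7-KO;p62T352A against Atg7-KO. Their summed level was 151474, 86204 and 78849 CPM in cont. mice, 48017, 48863 and 44647 in Atg7-KO mice and 111561, 136056 and 113928 in Atg7-KO;p62T352A mice, led by Alb. None of the 8 was at 0 in every mouse. When libraries were scaled to these 8 genes, which moved the median of all genes to 1.07 and the split of calls to 8138 higher and 414 lower, Apoa2 was the only 1 of the 6 still called lower (-1.72, FDR = 0.00331). The others ranged from -0.85 for Apoc1 to -0.05 for Apoe. Apoa4 (4.42), Mttp (1.58) and Apob (0.73, FDR = 0.0451) were then called higher. In Atg7-KO;p62T352A against Atg7-KO, with 531 genes called higher and 7310 lower on that scale, Apoa1 (1.11), Apoa2 (1.85), Apoc1 (1.62) and Apoc3 (1.52) were called higher, Apoa5 and Apoe were not, and Apoa4 (-1.24), Apob (-1.37) and Mttp (-1.64) were called lower. Relative to these hepatocyte markers, Apoa2 was thus lower in Atg7-KO livers and Apoa4, Mttp and Apob were higher, Apob by less than the median of all genes.

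**Figure D5:**
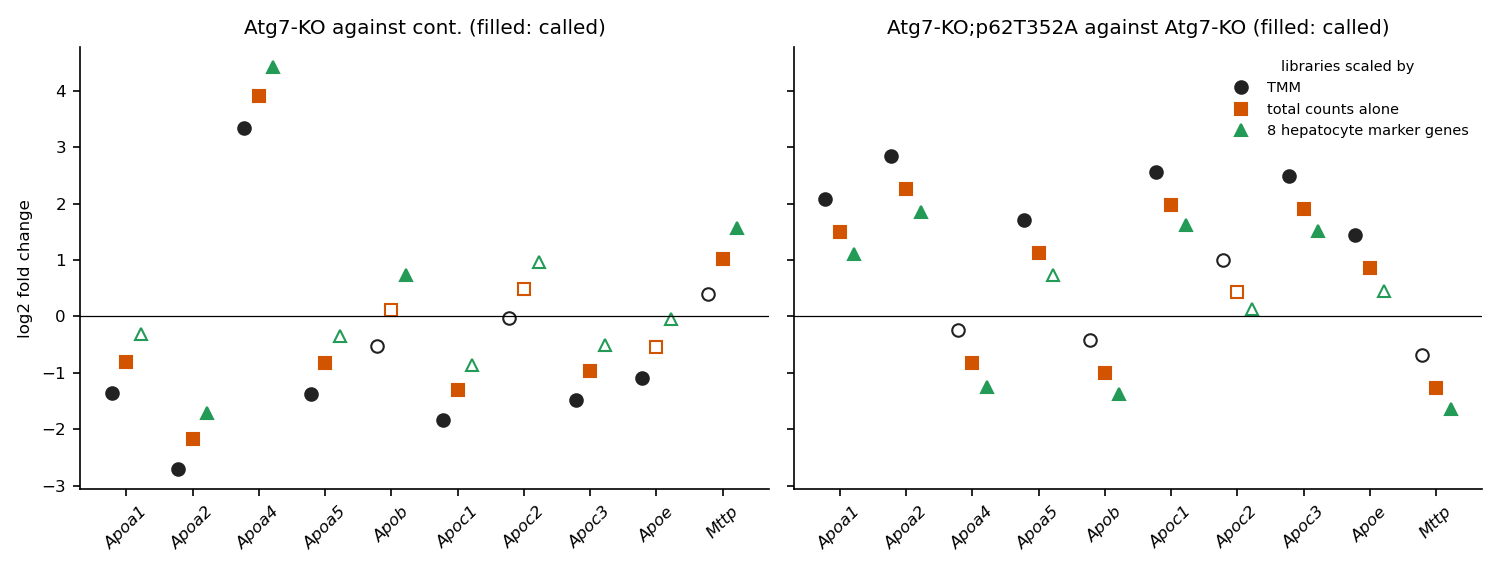
Log2 fold change (vertical axis) of the 10 genes in Atg7-KO against cont. (left) and in Atg7-KO;p62T352A against Atg7-KO (right) with libraries scaled by TMM, by total counts alone or by 8 hepatocyte markers, filled where called. Apoa2 stays called lower and Apoa4 higher at left under all 3 scalings, whereas the value of Apob crosses 0.

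Markers of macrophages, cholangiocytes, stellate cells and lymphocytes were mostly called higher in the same comparison, and those of sinusoidal endothelium were not. Of 10 macrophage markers 8 were called higher in Atg7-KO against cont., and their summed level was 424, 357 and 290 CPM in cont. mice, 1165, 1139 and 1211 in Atg7-KO mice and 200, 405 and 308 in Atg7-KO;p62T352A mice. Clec4f had the most counts of the list over all mice but was not called (0.48, FDR = 0.128), and in Atg7-KO livers Lyz2 (324 ± 28.2 CPM) and Cd5l (235 ± 17.9), both called higher, were above it (182 ± 9.94). Of 6 cholangiocyte markers 5 were called higher, and their sum, led by Spp1, was 51.3, 33.4 and 42.6 CPM in cont. mice, 1023, 935 and 826 in Atg7-KO mice and 181, 185 and 266 in Atg7-KO;p62T352A mice. Sums of stellate cell markers (4 of 6 called higher, led by Dcn) were 252 ± 27.3, 566 ± 20.2 and 391 ± 98.4 CPM in the 3 genotypes. Those of lymphocyte markers (3 of 5 higher, led by Ptprc) were 23.8 ± 9.31, 60.6 ± 3.69 and 23.03 ± 2.00, and those of sinusoidal endothelium (2 of 6 higher and 2 lower, led by Ptprb) were 366 ± 46.7, 284 ± 7.36 and 204 ± 6.73. Intestinal markers (2 of 5 tested, 1 higher, led by Fabp2, which the liver also expresses) summed to 49.8 ± 21.2, 33.0 ± 3.44 and 78.4 ± 19.0. Pancreatic acinar markers (2 of 5 tested, 1 lower, led by Cela1) summed to 29.4 ± 18.7, 13.9 ± 1.56 and 27.1 ± 5.31. The part of a change in cell composition in the values of the 10 genes was not tested.

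Transcript length moved with the Atg7-KO;p62T352A livers, and most with mouse 2. In mice 1, 2 and 3 of that genotype, the median log2 deviation was 0.25, 0.59 and 0.26 over transcripts of up to 1000 bases. Over those of more than 8000 bases it was -0.0027, -0.27 and -0.021. In that genotype against cont., the median log2 fold change was 0.47 over 790 genes with transcripts of up to 1000 bases and -0.26 over 713 genes with transcripts of over 8000 bases. Against Atg7-KO these medians were 0.62 and -0.08. The transcripts of Apoa2, Apoc1, Apoc2 and Apoc3 measure 518 to 727 bases, that of Mttp 3963 and that of Apob 13934. With an offset for length, added after the values were seen, the log2 fold change against cont. was 0.39 for Apoa1, 0.21 for Apoc1 and 0.55 for Apoc3, in place of 0.73, 0.72 and 1.00. The fall of the 6 genes in Atg7-KO livers and their rise in Atg7-KO;p62T352A against Atg7-KO were called with the offset too. The rises were then smaller: 1.96 in place of 2.84 for Apoa2, 1.74 in place of 2.56 for Apoc1 and 1.82 in place of 2.49 for Apoc3. Apoc2, not called with or without the offset, was at 0.42 in place of 0.99 in that comparison and at 0.57 in place of 0.96 against cont.

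The counts of calls in the gene lists that follow depended on the scaling too, so each is given with TMM and with total counts alone. With TMM they stand beside 21.6% of all genes called higher and 22.1% called lower in Atg7-KO livers against cont., 24.7% and 26.2% in Atg7-KO;p62T352A livers against Atg7-KO, and 6.25% and 5.34% for Atg7-KO;p62T352A against cont. With total counts alone these shares were 42.6% and 7.92%, 9.64% and 44.1%, and 5.06% and 4.96%.

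Beside the 10 genes, 23 of 24 other apolipoproteins and factors of high density lipoprotein were tested. In Atg7-KO against cont. 4 were called higher and 10 lower (median log2 fold change -0.67), in Atg7-KO;p62T352A against Atg7-KO 11 higher and 3 lower (0.91), and in Atg7-KO;p62T352A against cont. 3 higher and 2 lower (-0.04). The same 3 comparisons called 5 higher and 6 lower, 7 and 6, and 4 and 2 with total counts alone. The largest falls in Atg7-KO were those of Saa4, the constitutive serum amyloid A of high density lipoprotein (-2.44, SE 0.23), and Apol7a (-2.12, SE 0.21). Saa4 was at 282, 443 and 269 CPM in cont. mice, 62.4, 64.2 and 57.1 in Atg7-KO mice and 274, 329 and 351 in Atg7-KO;p62T352A mice. The largest rises were those of the cholesterol exporter Abcg1 (2.09, SE 0.16) and of Clu, which encodes clusterin (1.61, SE 0.32). Apol9a (2.30, SE 0.33) and Apol9b (1.62, SE 0.32) were called higher in Atg7-KO;p62T352A against cont., and Apom, a carrier of sphingosine-1-phosphate (-1.72, SE 0.43), and the exporter Abca1 (-0.91, SE 0.22) lower. Apol9a and Apol9b are near-identical copies, and how their reads were divided is uncertain.

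The genes around the clusters gave a local comparison. Of 10 genes within 50 kb of a cluster that have an entry in the table and are not among the 10 described here, 9 were tested, and in Atg7-KO against cont. 2 were called higher and 1 lower. Total counts alone gave 3 higher and 1 lower there, and 1 and 3 in place of 1 and 1 in Atg7-KO;p62T352A against Atg7-KO. Apoc4, between Apoc2 and Apoc1, moved like its neighbour Apoc1: it fell by 1.68 on the log2 scale from cont. to Atg7-KO livers, rose by 2.77 from these to Atg7-KO;p62T352A livers, and was called higher in Atg7-KO;p62T352A against cont. as well (1.09, FDR = 0.01002). The genes called higher in Atg7-KO were Relb, a subunit of NF-kappaB (1.69), and Pvrl2, the cell adhesion gene Nectin2 (0.66). Clptm1 (0.54), Tomm40 (-0.24), Sik3 (-0.61), Zpr1 (-0.92), Bud13 (-0.54) and Apoc4-apoc2 (1.20) were not called in that comparison. Apoc4 was called higher and Relb lower (-0.76) in Atg7-KO;p62T352A against Atg7-KO, and the others were not called.

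Of 30 genes for the assembly and secretion of APOB particles, all tested, the comparison of Atg7-KO with cont. called 2 higher and 9 lower (median -0.24), that of Atg7-KO;p62T352A with Atg7-KO 9 higher and 4 lower (0.38), and that of Atg7-KO;p62T352A with cont. 0 higher and 3 lower (-0.0063). On total counts alone the split turned, to 7 higher and 4 lower in the first comparison and 4 and 9 in the second, with 0 and 3 in the last. Acsl1, which activates fatty acids (-2.15, SE 0.29), and Ces1d, a triglyceride hydrolase (-1.64, SE 0.42), fell most in Atg7-KO livers. The carboxylesterase gene Ces1g (1.86, SE 0.27) and Apobec1, which encodes the enzyme that edits Apob mRNA (1.08, SE 0.21), were the 2 that rose. The 3 genes called lower in Atg7-KO;p62T352A against cont. were Mia2, whose product helps to export large cargo from the endoplasmic reticulum (-3.23, SE 0.46), Ces1d (-2.37, SE 0.43) and A1cf, the RNA-binding partner of APOBEC1 (-2.12), the last named after its value was seen. P4hb, which encodes the small subunit that MTTP needs, was at -0.09 in Atg7-KO against cont. (FDR = 0.830).

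Receptors, lipases and their modulators comprised 24 genes, all tested. In Atg7-KO against cont. 5 were called higher and 8 lower (median -0.18), in Atg7-KO;p62T352A against Atg7-KO 7 higher and 7 lower (0.35), and in Atg7-KO;p62T352A against cont. 4 higher and 3 lower (0.0957). Here too total counts alone turned the first split, to 9 higher and 3 lower, with 5 and 10 in the second comparison and 3 and 2 in the last. Lpl, the lipase that APOC2 activates, was at 26.3 CPM in cont. and 276 in Atg7-KO livers (log2 fold change 3.39, SE 0.27) and still above cont. in Atg7-KO;p62T352A livers (108 CPM, 2.04, SE 0.26). Lrp8, a receptor for APOE, was at 0.18 CPM in cont. and 4.83 in Atg7-KO livers (4.81, SE 0.48). Vldlr, the receptor for very low density lipoprotein, fell (-3.62, SE 0.67), as did hepatic lipase, Lipc (-1.39, SE 0.20). The cont. mice were far apart for Vldlr, at 4.07, 21.5 and 38.9 CPM. Angptl8, an inhibitor of lipoprotein lipase that the table lists as Gm6484, was called higher in Atg7-KO;p62T352A against cont. (1.99, SE 0.39), and Vldlr (-2.30, SE 0.63) and Mylip, a ubiquitin ligase (-1.55, SE 0.20), lower, although for Vldlr the mice of the 2 genotypes overlapped.

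Transcription factors known to act on apolipoprotein genes made up the last list, with 29 genes tested. In Atg7-KO against cont. 0 were called higher and 16 lower (median -0.77), in Atg7-KO;p62T352A against Atg7-KO 18 higher and 2 lower (0.88), and in Atg7-KO;p62T352A against cont. 2 higher and 3 lower (0.0475). The counts were 2 higher and 4 lower, 6 and 5, and 2 and 2 with total counts alone. Mlxipl, the carbohydrate-responsive factor ChREBP, fell most (-3.54, SE 0.60). It was at 293, 1534 and 1918 CPM in cont. mice, 93.7, 118 and 110 in Atg7-KO mice and 1110, 565 and 924 in Atg7-KO;p62T352A mice, with cont. mouse 1 well below the other cont. mice. Nr1d1, the circadian repressor REV-ERB alpha, was next (-2.99, SE 0.67), with 45.6, 244 and 353 CPM in cont. mice, where mouse 1 was again the lowest. In Atg7-KO;p62T352A against cont., Nr0b2, the corepressor SHP (1.07, SE 0.25), and Rora (1.06, SE 0.25) were called higher, and Nr5a2, known as LRH-1 (-1.64, SE 0.23), and Prox1 (-1.43, SE 0.24) lower. Hnf4a, whose product binds many apolipoprotein promoters, was at 590, 573 and 424 CPM in cont. mice, 363, 431 and 419 in Atg7-KO mice and 639, 614 and 752 in Atg7-KO;p62T352A mice. It was not called in Atg7-KO against cont. (-0.39, FDR = 0.131) and was called higher in Atg7-KO;p62T352A against Atg7-KO (0.73, FDR = 0.0119).

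Genes whose pattern over the 9 mice was most like that of each of the 10 were sought among 8508 tested genes with a mean of at least 10 CPM, by the root mean square difference of centred log2 CPM. For Apoe these were Scrn2 (0.08), Ogfod2 (0.0913) and Ino80b (0.0971), and for Mttp they were Mtfr1 (0.0776), Elp3 (0.0803) and Serinc1 (0.0823). Apoa5 was nearest to Fetub (0.0959), Alkbh7 and Ndufa6, Apoc1 to Ptms (0.102), Fxyd1 and Cd59a, and Apoc3 to Fkbp2 (0.122), Fxyd1 and Ndufa5. Apob was nearest to Atrnl1 (0.119), Glce and Ak4, Apoa1 to Rfxank (0.178), Snhg8 and Fahd1, and Apoa2 to Ttc36 (0.204), Zap70 and Aspdh. Apoc2 (Raph1, 0.341, Eri2 and Atoh8) and Apoa4 had no gene as near. This difference was not divided by a gene's own spread, the root mean square of its centred values. That spread was 1.53 for Apoa4, 1.33 for Apoa2, 0.68 for Apoc2 and 0.39 for Mttp. The nearest to Apoa4 were Isg15 (0.412), 2010003K11Rik (0.518) and Ifi27l2b (0.558), and Isg15, a ubiquitin-like protein induced by interferon, had log2 fold changes of 3.38 in Atg7-KO and 2.90 in Atg7-KO;p62T352A livers against cont.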

How the data were processed

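The authors sequenced liver poly(A) RNA in single-end reads of 75 bp, and 9 mice of 3 genotypes were analysed here. Per the labels and the methods, Trim Galore trimmed the reads, STAR mapped them to mm10 and RSEM made expected counts. Versions, annotation and strand setting are not given in the sources used here. The deposited table gives these expected counts for each gene and mouse as the authors obtained them, not scaled. They were rounded to whole numbers. Columns were assigned by the genotype and mouse number in the labels. The methods name TRIzol for RNA extraction and the labels a column-based kit. The methods describe biological replicates and no pairing. Xist was low in the mouse numbered 1 of every genotype.

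Genes were filtered by edgeR's filterByExpr, scaled by TMM and fitted in 1 quasi-likelihood model over the 3 genotypes (R 4.3.3, edgeR 4.0.16, with DESeq2 1.42.0 as an alternative), with Benjamini-Hochberg adjustment over all 13922 genes tested. Standard errors were derived from the F statistic. Figures were drawn in Python 3.11.15 with matplotlib 3.10.9. The steps were tested on simulated data. The 10 genes and the gene lists were chosen with earlier results of these data known. Genes of the lists were named by rule: the 2 largest called rises and falls in Atg7-KO and in Atg7-KO;p62T352A against cont. with a mean of at least 1 CPM, every tested gene within 50 kb of a cluster, the 3 genes most like each of the 10, and the most counted gene of each marker list and any at 0. Saa4, Mlxipl, Hnf4a, P4hb, A1cf, Vil1, Lyz2 and Cd5l are described further, or named, outside that rule. Positions and lengths come from GENCODE vM21 (GRCm38) and promoters from RefSeq (GRCm38.p6). A length was matched for 24054 of 24411 genes. Alternatives were other normalizations, DESeq2, other filters, glmTreat, FDR alone, a replicate block, each mouse left out in turn and the mice numbered 1 left out. Total counts alone, a length offset with and without the block, scaling to hepatocyte markers and summed Apoc2 entries were added after seeing the data.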

Additional observations from a re-analysis of the deposited data

How the results depend on the processing

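The cause of the following changes was not tested. Leaving out 1 mouse kept all 6 falls, all 6 rises and both calls of Apoa4. In Atg7-KO;p62T352A against cont., the number of all genes called, 1613, ran from 435 (without mouse 3 of Atg7-KO;p62T352A) to 3245 (without cont. mouse 1) and the number among the 10 genes from 1 to 3. That second number was 3 with DESeq2, which added Apoa1 and Apoc3, and 2 with either sum of Apoc2 entries. With one mouse left out, values that are not called changed sign: Apob in Atg7-KO against cont. ran from -0.87 to 0.16, Apoc2 there from -0.27 to 0.25, and in Atg7-KO;p62T352A against cont. Apoa2 ran from -0.12 to 0.41 and Mttp from -0.48 to 0.0862. In Atg7-KO against cont., Apoc2 turned to 0.0907 with upper-quartile normalization, 0.0435 with at least 10 counts in every mouse, 0.49 with total counts alone, 0.15 with the length offset and 0.97 with hepatocyte markers. Its sum with the read-through entry was at 0.59. Apob turned to 0.12 with total counts alone, 0.16 without the mice numbered 1 and 0.73 with hepatocyte markers. Without the mice numbered 1, Apoa4 turned to 0.0482 in Atg7-KO;p62T352A against Atg7-KO and Mttp to 0.0713 in Atg7-KO;p62T352A against cont., and 2975 genes were called in the latter. Apoa2 turned to -0.44 there with the length offset. The number of the 10 genes called in Atg7-KO against cont., 7, was 4 with hepatocyte markers. On that scale 442 of all genes were called in Atg7-KO;p62T352A against cont. With glmTreat, all genes called numbered 3855, 4718 and 253 in the 3 comparisons. Apoe, Apoa2, Apoa1 and Apoc1 are among the 20 most counted genes. With the others of these 20 left out of the total, the mean share of the 10 genes was 3.36% in Atg7-KO livers. In Atg7-KO;p62T352A livers it was then 8.66%. Over TMM library sizes the shares were 2.30% and 8.25%. Counts of called genes in the lists moved by over 1.5 times in 63 combinations of list, comparison and setting and not in 312, and 15 of 30 length-scaled values moved by over 1 SD with merged exons as the length. Mouse numbers were checked for pairing. Deviations from the genotype mean correlated by 0.223, -0.0303 and 0.247 on average for the mice numbered 1, 2 and 3, and 5 of 9 mice correlated best with their own number. All pairs numbered 1 or 3 were between 0.137 and 0.321, whereas pairs numbered 2 ran from -0.202 to 0.0926, so pairing was not shown for all numbers and the fit without a block was kept. Mice numbered 1 were also those with few Xist counts, so the fit without them held only mice with many. A term for this split alone was in no fit. Under a replicate block by mouse number, 988 genes were called in Atg7-KO;p62T352A against cont., and Mttp was called in Atg7-KO;p62T352A against Atg7-KO (-0.69, FDR = 0.0487). With the block and the length offset together, 812 genes were called in Atg7-KO;p62T352A against cont., Apoc2 was at 0.11 in Atg7-KO against cont. and Apoa2 at -0.43 in Atg7-KO;p62T352A against cont. Depth does not limit the 10 genes, of which the lowest had 441 counts in a mouse.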
